A study of Mus musculus with 9 samples.

Results

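Potassium channels were followed across a mouse tumour, a mutant cerebellum and a normal cerebellum through the 87 genes whose symbol starts with Kcn, the prefix of potassium channel pores and their auxiliary subunits. A gene was taken when a probe set naming it alone read above the 25th percentile of its array on 3 or more arrays, and the probe set with the highest mean stood for the gene. Of 92 Kcn genes with such a probe set, 87 passed, among 16323 genes tested in all. Of the 87, 83 encode channel or auxiliary subunits, sorted here into 14 groups by role, and 4 carry a Kcn symbol without naming a subunit (Kcnd3os, Kcnmb4os1, Kcnmb4os2 and Kcnrg). The 5 that did not pass were Kcna5, Kcne1, Kcne3, Kcnj5 and Kcnu1. Of the 87, 77 read above that percentile on every array and 10 on 3 to 8 arrays.

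The groups were medulloblastoma tumour of Ptch1KO mice, cerebellum of SufuKO mice and cerebellum of wildtype mice, all taken at postnatal day 13, with 3 samples each and 1 Affymetrix Mouse Gene 1.0 ST array per sample. Ptch1 encodes the receptor that holds Hedgehog signalling off, and Sufu an inhibitor of its Gli transcription factors. The labels name no strain, no promoter or recombinase, no deleted exons, no sex and no pooling. Apart from sex, these cannot be told apart from genotype. Sex is read from Xist below and is only partly separable, since Xist was high on all 3 wildtype arrays. Tissue also differs, since the Ptch1KO samples are dissected tumour and the SufuKO and wildtype samples are cerebellum. Values are log2 array levels, so a difference of 1 unit is a doubling.

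Potassium channels let potassium leave the cell and so set the resting potential, end each action potential and space the next. Voltage-gated channels are tetramers of pore subunits that work with cytoplasmic beta subunits or small calcium-binding partners, inward rectifiers and leak channels hold the resting potential, and calcium- or sodium-activated channels follow activity. In the cerebellum, granule neurons are known for A-type and leak currents, Purkinje cells and interneurons for fast delayed rectifiers and calcium-activated currents, and glia for inward rectifiers that buffer extracellular potassium.

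The array medians lay between 6.72 and 6.79. Sufu read 9.91, 9.92 and 9.81 in Ptch1KO tumours, 8.07, 8.14 and 7.99 in SufuKO cerebella and 9.03, 8.82 and 9.02 in wildtype cerebella, so it was lower in SufuKO than in wildtype (log2 difference -0.89, limma adjusted p = 9.70e-06). Ptch1 read 11.2 to 11.4 in Ptch1KO tumours, and its level checks nothing there because the labels do not say which part was deleted. Xist was high on 1 Ptch1KO, 1 SufuKO and 3 wildtype arrays, so sex is unevenly spread over the groups. On the first principal component, Ptch1KO replicate 3 lay nearest to the wildtype, at 26.1 against 41.3 and 39.9 for the other Ptch1KO arrays. Nothing in the labels states that replicates are different animals. Each mutant group holds arrays with high and with low Xist, so neither is 1 animal measured 3 times, and for wildtype this cannot be told. The p-values rest only on how much these samples vary, part of which may be technical.

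Upstream windows were read for Kcnip4, Kcna2 and Kcnc1, which fell far in both mutants, Kcnh5, which rose furthest in the tumours, and Kcnq5, which rose in both. The 3 windows shown are those that held a marked motif, so the presence of a motif in them is not a result. Each is the 250 bases before an annotated start, from RefSeq on build GRCm38.p6, read 5′ to 3′ on the gene's strand, at chr5:48599683-48599932 on the minus strand for the second of 2 Kcnip4 starts, chr3:107101317-107101566 on the plus strand for Kcna2 and chr12:75177333-75177582 on the minus strand for Kcnh5. Capitals mark CAGCTG, an E-box of the kind bound by neural bHLH factors, and TTGGC, a half-site of nuclear factor one, each searched on both strands (GCCAA is TTGGC on the other strand).
Kcnip4: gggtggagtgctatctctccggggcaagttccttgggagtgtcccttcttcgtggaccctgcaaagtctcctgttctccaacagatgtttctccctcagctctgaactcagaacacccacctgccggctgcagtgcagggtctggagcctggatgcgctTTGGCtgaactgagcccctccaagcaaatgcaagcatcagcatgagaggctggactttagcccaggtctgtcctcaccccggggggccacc
Kcna2: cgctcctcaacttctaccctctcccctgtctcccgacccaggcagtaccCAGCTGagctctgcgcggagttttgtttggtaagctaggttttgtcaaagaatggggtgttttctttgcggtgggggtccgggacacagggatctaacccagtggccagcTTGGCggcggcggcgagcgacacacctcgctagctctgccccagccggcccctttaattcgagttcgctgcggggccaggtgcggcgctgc
Kcnh5: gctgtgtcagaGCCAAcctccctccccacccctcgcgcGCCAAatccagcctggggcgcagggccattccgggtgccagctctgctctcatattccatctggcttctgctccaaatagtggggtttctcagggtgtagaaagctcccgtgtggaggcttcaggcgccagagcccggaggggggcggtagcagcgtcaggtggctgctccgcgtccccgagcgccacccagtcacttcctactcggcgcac
CAGCTG stood in 22 of the 91 windows found for 67 of the 87 genes, and in 4271 of all 32851 windows. The median GC content was 58.8% in the Kcn windows and 52.4% in all windows, and windows of 1 gene can overlap. TTGGC stood in 41.8% of the Kcn windows and 41.5% of all windows. The Gli motif GACCACCCA stood in 0 of the 91 and in 0.225% of all. The window of the first Kcnip4 start, both windows of Kcnq5 and that of Kcnc1, not shown, held 0 of the 3 motifs. A match describes letters in these windows only.

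In Ptch1KO tumours, many voltage-gated, leak and activity-driven channels were lower than in wildtype, while a smaller set led by Kcnh5 was higher. Of the 87 genes, 9 were higher, 35 were lower and 43 did not pass (limma, Benjamini-Hochberg adjusted p under 0.05 over all 16323 genes). The 35 lower genes are 40.2% of the 87, beside 24.7% of all genes tested, and the 9 higher genes are 10.3%, beside 22.1%. Lower by at least 1 log2 unit were 16 of the 87 (18.4%, beside 4.02% of all genes), and 1, Kcnh5, was higher by as much (beside 3.43%). The median difference was -0.10 over the 87 and -0.01 over all genes. Bright probe sets give more calls: of the 53 Kcn genes with a mean above every array's median, 31 were lower (58.5%, beside 31.5% of all genes at that level), and of the other 34, 4 were (11.8%, beside 10.2%).

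In SufuKO cerebella fewer genes passed against wildtype. Of the 87 genes, 8 were higher, 22 were lower and 57 did not pass. The 22 are 25.3% of the 87, beside 12.4% of all genes, and the 8 are 9.20%, beside 13%. Of the 87, only Kcnip4 was lower by at least 1 log2 unit (1.15%, beside 0.221% of all genes), and only Kcnq5 higher by as much (1.15%, beside 1.14%). The mutants were also set against each other directly, which tests whether they differ. There 5 genes were higher in Ptch1KO tumours than in SufuKO cerebella (5.75%, beside 12.2% of all genes) and 33 were lower (37.9%, beside 17.5%). By at least 1 log2 unit, 6 were lower (6.90%, beside 1.13%) and 1 was higher (1.15%, beside 0.754%). Both comparisons with wildtype use the same 3 wildtype arrays, so the values below are given side by side.

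**Figure D1:**
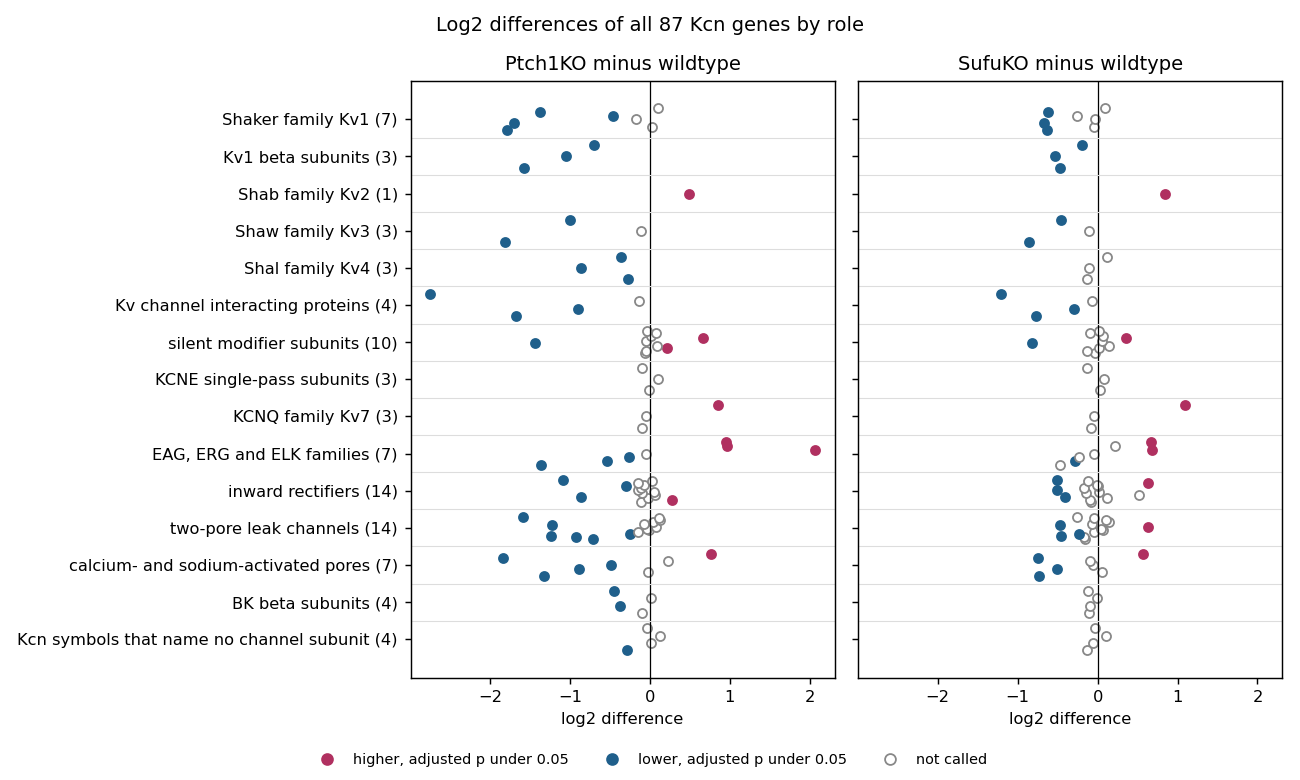
Log2 differences of the 87 Kcn genes by role (points, 1 per gene), with Ptch1KO minus wildtype on the left and SufuKO minus wildtype on the right, filled where limma's adjusted p was under 0.05; group sizes are in brackets. All 3 Shal genes were lower in Ptch1KO tumours and none passed in SufuKO cerebella, while Kcnh5 lay furthest to the right at 2.07.

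The Kv channel interacting proteins, calcium-binding partners that ride on Shal pores, held the furthest fall. Kcnip4, which slows the inactivation of those pores, read 7.25, 7.38 and 7.56 in Ptch1KO tumours, 8.91, 9.01 and 8.89 in SufuKO cerebella and 10.10, 10.11 and 10.23 in wildtype cerebella. The 3 groups did not overlap and SufuKO lay between the others. Kcnip4 was 6.73-fold lower in Ptch1KO than in wildtype (log2 difference -2.75 ± 0.08, SE, n = 3 per group, adjusted p = 1.91e-09), 2.31-fold lower in SufuKO than in wildtype (-1.21, adjusted p = 3.13e-06) and lower in Ptch1KO than in SufuKO (-1.54, adjusted p = 6.66e-07). Kcnip1 read 7.63, 7.50 and 7.58 in Ptch1KO tumours, 8.40, 8.49 and 8.52 in SufuKO cerebella and 9.18, 9.24 and 9.31 in wildtype cerebella. It fell 3.20-fold in Ptch1KO (-1.68, adjusted p = 5.96e-09) and 1.71-fold in SufuKO (-0.77, adjusted p = 1.13e-05). Kcnip2 also fell in both mutants (-0.90 and -0.30), and Kcnip3, also known as the transcriptional repressor DREAM, did not pass in any of the 3 comparisons (-0.13 in Ptch1KO and -0.07 in SufuKO).

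The Shal pores that these proteins join carry the subthreshold A-type current of dendrites and granule neurons. All 3 fell in Ptch1KO tumours, and in SufuKO cerebella 0 of 3 passed limma's test, also 0 at an unadjusted p under 0.05. Among all genes, 24.7% were lower in Ptch1KO and 12.4% in SufuKO. Kcnd2 read 9.99, 9.88 and 10.35 in Ptch1KO tumours, 10.81, 10.82 and 10.88 in SufuKO cerebella and 10.82, 10.97 and 11.03 in wildtype cerebella. The SufuKO and wildtype arrays overlapped, and every Ptch1KO array lay below both. Its difference was -0.86 in Ptch1KO (adjusted p = 2.47e-05), -0.10 in SufuKO (adjusted p = 0.557, 95% interval -0.34 to 0.13) and -0.76 between the mutants (adjusted p = 0.000216). Kcnd3 was lower in Ptch1KO than in wildtype (-0.36, adjusted p = 0.00176) and than in SufuKO (-0.48, adjusted p = 0.000542), while its SufuKO difference from wildtype was 0.12 (adjusted p = 0.325). The X-linked Kcnd1 fell in Ptch1KO by 0.27 (adjusted p = 0.00684), and between the mutants it differed by -0.14 (adjusted p = 0.167).

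**Figure D2:**
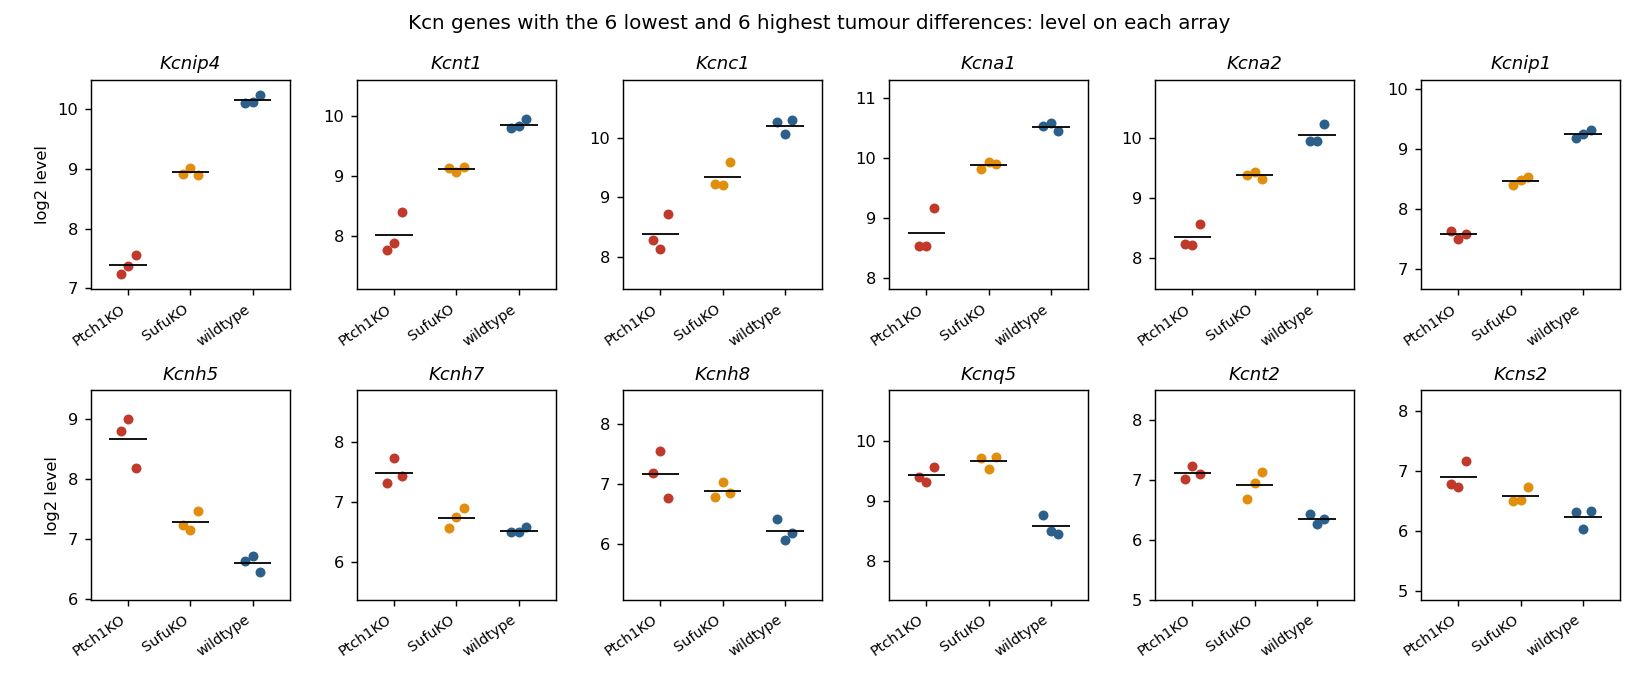
Log2 level (vertical axis) on each array (points) with group means (lines) for the 6 Kcn genes with the lowest and the 6 with the highest Ptch1KO minus wildtype difference. For Kcnip4, Ptch1KO tumours read 7.25 to 7.56, SufuKO cerebella 8.89 to 9.01 and wildtype cerebella 10.10 to 10.23, while Kcnh5 runs in the opposite direction.

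Of the 7 Shaker genes, whose channels hold axons and terminals below threshold, 4 were lower in Ptch1KO and 3 in SufuKO. That is 57.1% in Ptch1KO, beside 24.7% of all genes, and 42.9% in SufuKO, beside 12.4%. Kcna1, the subunit mutated in episodic ataxia, read 8.54, 8.54 and 9.16 in Ptch1KO tumours, 9.82, 9.94 and 9.91 in SufuKO cerebella and 10.53, 10.59 and 10.46 in wildtype cerebella. Ptch1KO replicate 3 was the highest of its group, and no group overlapped another. Kcna1 fell 3.44-fold in Ptch1KO (-1.78, adjusted p = 5.12e-07) and 1.56-fold in SufuKO (-0.64, adjusted p = 0.00478). Kcna2, its common partner at basket cell terminals, read 8.24, 8.23 and 8.58 in Ptch1KO tumours, 9.38, 9.44 and 9.33 in SufuKO cerebella and 9.96, 9.95 and 10.24 in wildtype cerebella. It fell 3.26-fold in Ptch1KO and 1.59-fold in SufuKO, and a dimmer probe set of Kcna2 fell too (adjusted p = 2.20e-06 in Ptch1KO and 0.00177 in SufuKO). Kcna6 fell by 1.37 in Ptch1KO and by 0.63 in SufuKO. Kcna4 fell in Ptch1KO by 0.46 (adjusted p = 0.00205), while Kcna3, Kcna7 and Kcna10 did not pass against wildtype in either mutant. Kcna4 is dim, at 5.25, 5.50 and 5.43 in Ptch1KO tumours, where the 25th percentiles of the arrays lay between 5.32 and 5.41. With sex as a covariate Kcna3 passed in Ptch1KO (-0.29, adjusted p = 0.0106).

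The beta subunits that attach to Shaker pores fell with them, all 3 in both mutants. Over all genes the shares lower were 24.7% in Ptch1KO and 12.4% in SufuKO. Kcnab1, which speeds inactivation, read 8.05, 7.77 and 7.91 in Ptch1KO tumours, 9.08, 8.94 and 8.98 in SufuKO cerebella and 9.41, 9.41 and 9.61 in wildtype cerebella. That is 2.96-fold lower in Ptch1KO (-1.57, adjusted p = 4.60e-08) and 1.39-fold lower in SufuKO (-0.48, adjusted p = 0.00167). Kcnab2 fell by 1.05 and 0.53, and Kcnab3 by 0.70 and 0.20. The SufuKO call of Kcnab3 (adjusted p = 0.0415) was lost without any 1 of SufuKO replicates 1 and 3, wildtype replicates 1, 2 and 3 or Ptch1KO replicates 1 and 2 (adjusted p 0.0518 to 0.117). It was also lost with an intensity trend in the prior (0.0568), with array weights (-0.12, adjusted p = 0.0503) and with only the 2 groups compared (0.054).

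Shaw channels let neurons fire fast. Kcnc1 read 8.29, 8.15 and 8.72 in Ptch1KO tumours, 9.23, 9.21 and 9.60 in SufuKO cerebella and 10.26, 10.05 and 10.29 in wildtype cerebella. It fell 3.52-fold in Ptch1KO (-1.81, adjusted p = 6.05e-07) and 1.81-fold in SufuKO (-0.85, adjusted p = 0.00101). Kcnc4 fell by 0.99 and 0.46, and Kcnc2 did not pass in either mutant.

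The Shab pore Kcnb2, a slow delayed rectifier, was higher in both mutants. It read 8.65, 8.72 and 8.84 in Ptch1KO tumours, 9.01, 9.02 and 9.26 in SufuKO cerebella and 8.32, 8.16 and 8.27 in wildtype cerebella. It was higher in Ptch1KO than in wildtype by 0.49 (adjusted p = 0.000456) and in SufuKO than in wildtype by 0.85 (adjusted p = 3.19e-05), and lower in Ptch1KO than in SufuKO (-0.36, adjusted p = 0.00695). Silent subunits conduct only when joined to Shab pores. Of these 10, Kcng4 fell 2.71-fold in Ptch1KO (-1.44, adjusted p = 1.15e-06) and 1.77-fold in SufuKO (-0.82, adjusted p = 0.000453), and it read 6.96, 6.54 and 6.91 in Ptch1KO tumours, 7.41, 7.62 and 7.22 in SufuKO cerebella and 8.17, 8.38 and 8.17 in wildtype cerebella. Kcns2 was higher by 0.67 in Ptch1KO (adjusted p = 0.000513) and by 0.36 in SufuKO (adjusted p = 0.0462), and the SufuKO call was lost without any 1 array other than Ptch1KO replicates 2 and 3 (adjusted p 0.0538 to 0.189) and with sex as a covariate (0.11). That call was also lost with quantile normalization (0.0777) and with no filter on low values (0.054). Kcng2 passed in Ptch1KO at 0.22 (adjusted p = 0.0424) and was lost without Ptch1KO replicate 1 or 2, SufuKO replicate 2, or wildtype replicate 2 or 3 (adjusted p 0.0607 to 0.178), with sex as a covariate (0.196) and with quantile normalization (0.0543). Of the 3 KCNE subunits, single-pass proteins that alter the gating of pores, 0 passed limma's test in each comparison, also 0 at an unadjusted p under 0.05 (1 passed in SufuKO with array weights), and Kcne2 differed by 0.10 and Kcne4 by -0.09 in Ptch1KO. Among all genes, 22.1% were higher and 24.7% lower in Ptch1KO, 13% and 12.4% in SufuKO, and 12.2% and 17.5% between the mutants. Kcne2 and Kcne4, with means of 5.96 and 5.43, lay below every array median, so a change in them could be missed.

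The highest rises lay among the EAG, ERG and ELK pores, relatives of the cardiac ERG channel, where 3 of 7 were higher and 3 lower in Ptch1KO tumours. Each 3 are 42.9% of the 7, beside 22.1% of all genes higher and 24.7% lower. Kcnh5, the EAG2 pore, studied in medulloblastoma cells for its part in cell volume at mitosis, read 8.80, 9.01 and 8.19 in Ptch1KO tumours, 7.23, 7.14 and 7.46 in SufuKO cerebella and 6.62, 6.72 and 6.45 in wildtype cerebella. It was 4.20-fold higher in Ptch1KO than in wildtype (2.07 ± 0.17, SE, n = 3 per group, adjusted p = 7.95e-07), 1.60-fold higher in SufuKO than in wildtype (0.68, adjusted p = 0.0106) and 2.62-fold higher in Ptch1KO than in SufuKO (1.39, adjusted p = 9.0e-05). Its 3 groups did not overlap, and Ptch1KO replicate 3 was the lowest of the tumours. Kcnh7, an ERG pore, read 7.31, 7.73 and 7.42 in Ptch1KO tumours, 6.57, 6.74 and 6.89 in SufuKO cerebella and 6.49, 6.49 and 6.57 in wildtype cerebella. It rose by 0.97 in Ptch1KO (adjusted p = 1.06e-05), read 0.22 in SufuKO (adjusted p = 0.179, or 0.41 and 0.00622 with sex as a covariate) and differed by 0.75 between the mutants (adjusted p = 0.000254). Kcnh8, an ELK pore, rose by 0.95 in Ptch1KO (adjusted p = 0.000339) and by 0.67 in SufuKO (adjusted p = 0.00932). Its dimmer probe set gave 0.37 (adjusted p = 0.00704) and 0.24 (adjusted p = 0.104).

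Kcnh1, the EAG1 pore and nearest relative of Kcnh5, moved the opposite way, and is named after its values were seen. It read 8.06, 8.35 and 9.09 in Ptch1KO tumours, 9.40, 9.32 and 9.43 in SufuKO cerebella and 9.81, 9.79 and 9.96 in wildtype cerebella. It fell by 1.35 in Ptch1KO (adjusted p = 7.22e-05), and its SufuKO difference of -0.47 (adjusted p = 0.0938) passed without Ptch1KO replicate 1 or 3 (adjusted p 0.039 and 0.00201), since all arrays share 1 estimate of the spread. Kcnh2, the ERG1 pore, fell by 0.54 in Ptch1KO and by 0.28 in SufuKO. Kcnh3 fell by 0.26 in Ptch1KO (adjusted p = 0.028), which was lost without Ptch1KO replicate 2 or wildtype replicate 2 or 3 (adjusted p 0.0747 to 0.121). Its SufuKO difference was close, at -0.24 (adjusted p = 0.0725), and the mutants differed by -0.03 (adjusted p = 0.881). The SufuKO difference passed with quantile normalization (0.0419), array weights (0.00358) or sex as a covariate (0.0232). It also passed without SufuKO replicate 1 (0.0296) or wildtype replicate 1 (0.0412).

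The KCNQ pores carry the M-current that muscarinic receptors shut. Kcnq5 read 9.40, 9.33 and 9.57 in Ptch1KO tumours, 9.72, 9.54 and 9.74 in SufuKO cerebella and 8.77, 8.51 and 8.45 in wildtype cerebella. Every mutant array lay above every wildtype array. Kcnq5 rose 1.81-fold in Ptch1KO (0.85, adjusted p = 1.29e-05) and 2.13-fold in SufuKO (1.09, adjusted p = 1.33e-05), and the mutants differed by -0.24 (adjusted p = 0.0904), which passed without Ptch1KO replicate 3 (adjusted p = 0.0424). Kcnq3 read -0.05 in both mutants and did not pass.

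Of the 14 leak channels, 6 were lower in Ptch1KO and 3 in SufuKO, and 1 was higher in SufuKO. The lower ones are 42.9% in Ptch1KO, beside 24.7% of all genes, and 21.4% in SufuKO, beside 12.4%. The higher one is 7.14%, beside 13%. Kcnk9, TASK-3, a leak channel of granule neurons, read 8.75, 8.79 and 9.45 in Ptch1KO tumours, 10.27, 10.33 and 10.37 in SufuKO cerebella and 10.71, 10.54 and 10.48 in wildtype cerebella. It fell 2.99-fold in Ptch1KO (-1.58, adjusted p = 2.53e-06) and differed by -1.33 between the mutants (adjusted p = 5.27e-05). Its SufuKO difference from wildtype was -0.25 (adjusted p = 0.259, 95% interval -0.58 to 0.07), and passed without Ptch1KO replicate 3 (adjusted p = 0.023). Kcnk3, TASK-1, which pairs with TASK-3, fell in both, by 1.22 in Ptch1KO and by 0.47 in SufuKO (adjusted p = 0.00359). Kcnk1, a weak inward rectifying leak channel, fell in Ptch1KO by 0.71 (adjusted p = 1.72e-05), and Kcnk10, a mechanically gated relative named after its values were seen, by 0.92 (adjusted p = 1.55e-05). In SufuKO these read -0.15 and -0.16 and did not pass, and both were lower in Ptch1KO than in SufuKO.

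Kcnk2, the mechanically gated TREK-1, read 8.12, 8.29 and 8.49 in Ptch1KO tumours, 8.94, 8.86 and 8.78 in SufuKO cerebella and 8.32, 8.26 and 8.11 in wildtype cerebella. SufuKO lay above both other groups, which overlapped each other. Kcnk2 rose by 0.63 in SufuKO (adjusted p = 0.000536), read 0.07 in Ptch1KO (adjusted p = 0.596, 95% interval -0.14 to 0.28) and differed by -0.56 between the mutants (adjusted p = 0.000848). Kcnk12 fell by 1.24 in Ptch1KO and by 0.45 in SufuKO, and the SufuKO call was lost without SufuKO replicate 2 (adjusted p = 0.0526). Kcnk13 passed in both mutants (-0.25 and -0.24), but the Ptch1KO call was lost without Ptch1KO replicate 1 or 2 or wildtype replicate 2 (adjusted p 0.0561 to 0.0761) and the SufuKO call without SufuKO replicate 1 or 3, any 1 wildtype replicate or Ptch1KO replicate 1 (adjusted p 0.0571 to 0.145). The SufuKO call was also lost with an intensity trend in the prior (0.055) and with array weights (-0.12, adjusted p = 0.0887).

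**Figure D3:**
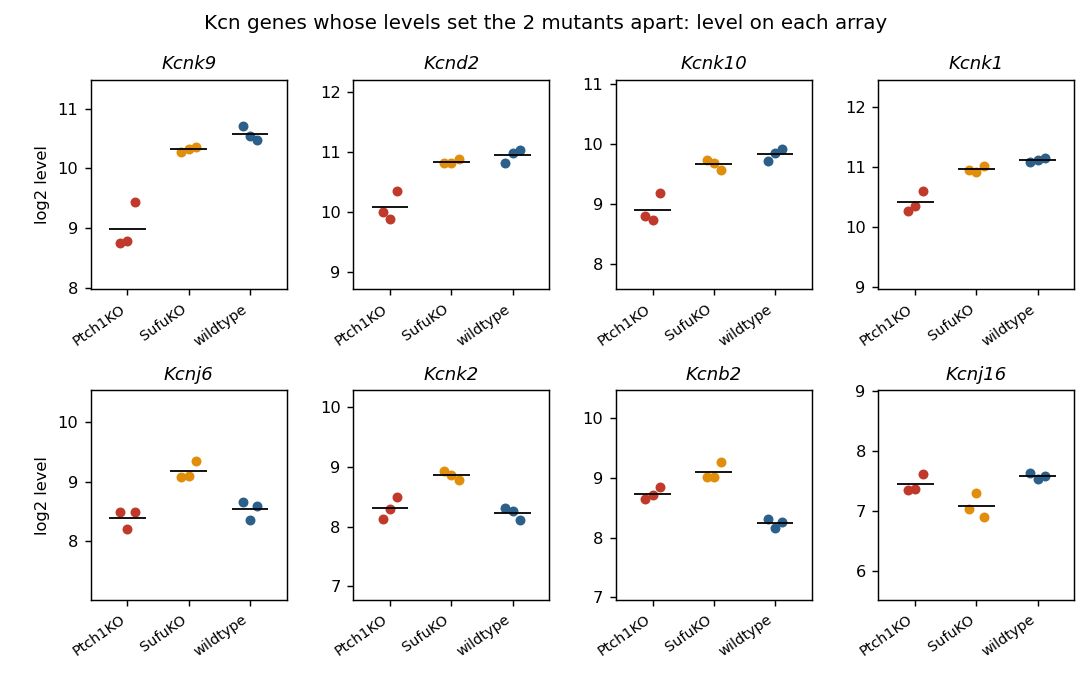
Log2 level (vertical axis) on each array (points) with group means (lines) for 8 Kcn genes that differed between the mutants, picked after their values were seen. Ptch1KO tumours lie lowest for Kcnk9, Kcnd2, Kcnk10 and Kcnk1, SufuKO cerebella lie highest for Kcnj6, Kcnk2 and Kcnb2, and SufuKO lies lowest for Kcnj16.

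Of the 14 inward rectifiers, 1 was higher and 3 were lower than in wildtype in each mutant, and 10 did not pass. The 3 lower genes are 21.4% of the 14, beside 24.7% of all genes in Ptch1KO and 12.4% in SufuKO, and the 1 higher gene is 7.14%, beside 22.1% and 13%. GIRK channels open when G proteins signal at inhibitory receptors. Kcnj9, GIRK3, read 7.21, 7.25 and 7.43 in Ptch1KO tumours, 7.74, 7.98 and 7.88 in SufuKO cerebella and 8.28, 8.53 and 8.33 in wildtype cerebella, falling by 1.08 in Ptch1KO (adjusted p = 1.07e-06) and by 0.51 in SufuKO (adjusted p = 0.00158). Kcnj6, GIRK2, read 8.50, 8.20 and 8.49 in Ptch1KO tumours, 9.08, 9.09 and 9.34 in SufuKO cerebella and 8.67, 8.36 and 8.58 in wildtype cerebella. All SufuKO arrays lay above the other 6. Kcnj6 rose 1.55-fold in SufuKO (0.63, adjusted p = 0.00116), read -0.14 in Ptch1KO (adjusted p = 0.331, 95% interval -0.38 to 0.09) and differed by -0.77 between the mutants (adjusted p = 0.000215). Kcnj3, GIRK1, passed in Ptch1KO at -0.29 (adjusted p = 0.0235), lost without Ptch1KO replicate 1 or 2 or wildtype replicate 1 or 3 (adjusted p 0.0518 to 0.113), with sex as a covariate (0.0769) and with quantile normalization (0.0691). Kcnj12, a classical strong inward rectifier, fell by 0.87 in Ptch1KO (adjusted p = 7.45e-06) and by 0.41 in SufuKO (adjusted p = 0.00602), the SufuKO value being -0.27 with array weights.

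Kcnj10, the Kir4.1 channel with which astrocytes and Bergmann glia take up potassium, read 9.40, 9.37 and 9.46 in Ptch1KO tumours, 8.83, 9.23 and 9.08 in SufuKO cerebella and 9.11, 9.30 and 9.0 in wildtype cerebella. It was higher in Ptch1KO than in wildtype by 0.27 (adjusted p = 0.0457) and than in SufuKO by 0.36 (adjusted p = 0.0182). The first was lost without any 1 Ptch1KO array or wildtype replicate 1 or 3 (adjusted p 0.0747 to 0.171), with sex as a covariate (0.106) and with no filter on low values (0.0527). The second was lost without Ptch1KO replicate 3 or SufuKO replicate 1 (adjusted p 0.0504 and 0.0678). Kcnj16, its Kir5.1 partner, read 7.34, 7.37 and 7.61 in Ptch1KO tumours, 7.03, 7.30 and 6.89 in SufuKO cerebella and 7.63, 7.53 and 7.59 in wildtype cerebella. It fell by 0.51 in SufuKO (adjusted p = 0.00362), read -0.14 in Ptch1KO (adjusted p = 0.311) and was 0.37 higher in Ptch1KO than in SufuKO (adjusted p = 0.0184), which was lost without Ptch1KO replicate 3 or SufuKO replicate 1 or 3 (adjusted p 0.0539 to 0.0676). With array weights the SufuKO fall of Kcnj16 was -0.30 (adjusted p = 0.00435), and the difference between the mutants was 0.11 (adjusted p = 0.274) for Kcnj16 and 0.18 (adjusted p = 0.0658) for Kcnj10. Beside these glial channels, 7 of 8 Bergmann glia and astrocyte markers were lower in each mutant than in wildtype. Among all genes, 24.7% were lower in Ptch1KO and 12.4% in SufuKO. Summed log2 levels of these markers were 12.51 to 12.91 in Ptch1KO, 12.75 to 12.79 in SufuKO and 13.45 to 13.50 in wildtype. The part of these markers in the channel results was not tested.

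Among pores opened by calcium or sodium, 4 of 7 fell in Ptch1KO and 3 in SufuKO. That is 57.1% in Ptch1KO, beside 24.7% of all genes, and 42.9% in SufuKO, beside 12.4%. Kcnt1, the sodium-activated Slack channel, read 7.76, 7.88 and 8.41 in Ptch1KO tumours, 9.13, 9.07 and 9.14 in SufuKO cerebella and 9.79, 9.83 and 9.95 in wildtype cerebella. It fell 3.58-fold in Ptch1KO (-1.84, adjusted p = 2.89e-07) and 1.67-fold in SufuKO (-0.74, adjusted p = 0.00145). Its relative Kcnt2, or Slick, rose in both, by 0.76 in Ptch1KO (adjusted p = 6.24e-05) and by 0.57 in SufuKO (adjusted p = 0.00188), and read 7.01, 7.22 and 7.10 in Ptch1KO tumours, 6.67, 6.95 and 7.13 in SufuKO cerebella and 6.42, 6.26 and 6.35 in wildtype cerebella. Kcnma1, the BK pore of large calcium-activated conductance, fell by 1.32 in Ptch1KO (adjusted p = 7.24e-08) and by 0.73 in SufuKO (adjusted p = 4.58e-05), but a dimmer probe set of mean 4.59 did not pass (0.58 and 0.06). That mean lies below the 25th percentile of every array (5.32 to 5.41), so the dimmer probe set cannot be told from background and says little about Kcnma1. Averaging both probe sets gave -0.37 in Ptch1KO (adjusted p = 0.0399), -0.33 in SufuKO (adjusted p = 0.097) and -0.04 between the mutants (adjusted p = 0.886).

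Kcnn2, the SK2 channel that follows spikes with a pause, fell by 0.88 in Ptch1KO (adjusted p = 9.45e-06) and by 0.51 in SufuKO (adjusted p = 0.00233), and the difference between the mutants of -0.37 (adjusted p = 0.011) was lost without Ptch1KO replicate 1 (adjusted p = 0.0525). Kcnn3, the SK3 channel, fell by 0.49 in Ptch1KO (adjusted p = 0.000578), read -0.06 in SufuKO (adjusted p = 0.694) and differed by -0.43 between the mutants (adjusted p = 0.00301). Kcnn4, a calcium-activated channel of blood and microglial cells, was higher in Ptch1KO than in SufuKO (0.33, adjusted p = 0.0442) and read 0.23 against wildtype (adjusted p = 0.11). That between-mutant call was lost without any 1 Ptch1KO array, SufuKO replicate 2 or 3 or wildtype replicate 1 or 2 (adjusted p 0.0502 to 0.147), and the value was 0.20 without SufuKO replicate 3. The same call was lost with no filter on low values (0.0516) and with only the 2 groups compared (0.0567). The difference from wildtype passed with array weights (adjusted p = 0.044), with only the 2 groups compared (0.0437) and without SufuKO replicate 3 (0.0376). Microglia markers were higher in Ptch1KO than in SufuKO in 3 of 7, beside 12.2% of all genes. Their summed log2 levels were 10.49 to 10.71 in Ptch1KO, 10.13 to 10.26 in SufuKO and 9.96 to 10.03 in wildtype. The part of these markers was not tested. Of 4 BK beta subunits, Kcnmb4, which makes BK channels slower, fell in Ptch1KO by 0.45 (adjusted p = 0.000559) and read -0.12 in SufuKO. Kcnmb2 fell in Ptch1KO by 0.37 (adjusted p = 0.00138), and its difference between the mutants, -0.27, was lost without Ptch1KO replicate 1 or 2 or SufuKO replicate 2 (adjusted p 0.0534 to 0.0828). The antisense transcript Kcnd3os fell in Ptch1KO by 0.29 (adjusted p = 0.0122) and was lost without Ptch1KO replicate 2 or wildtype replicate 1 or 2 (adjusted p 0.0538 to 0.058).

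**Figure D4:**
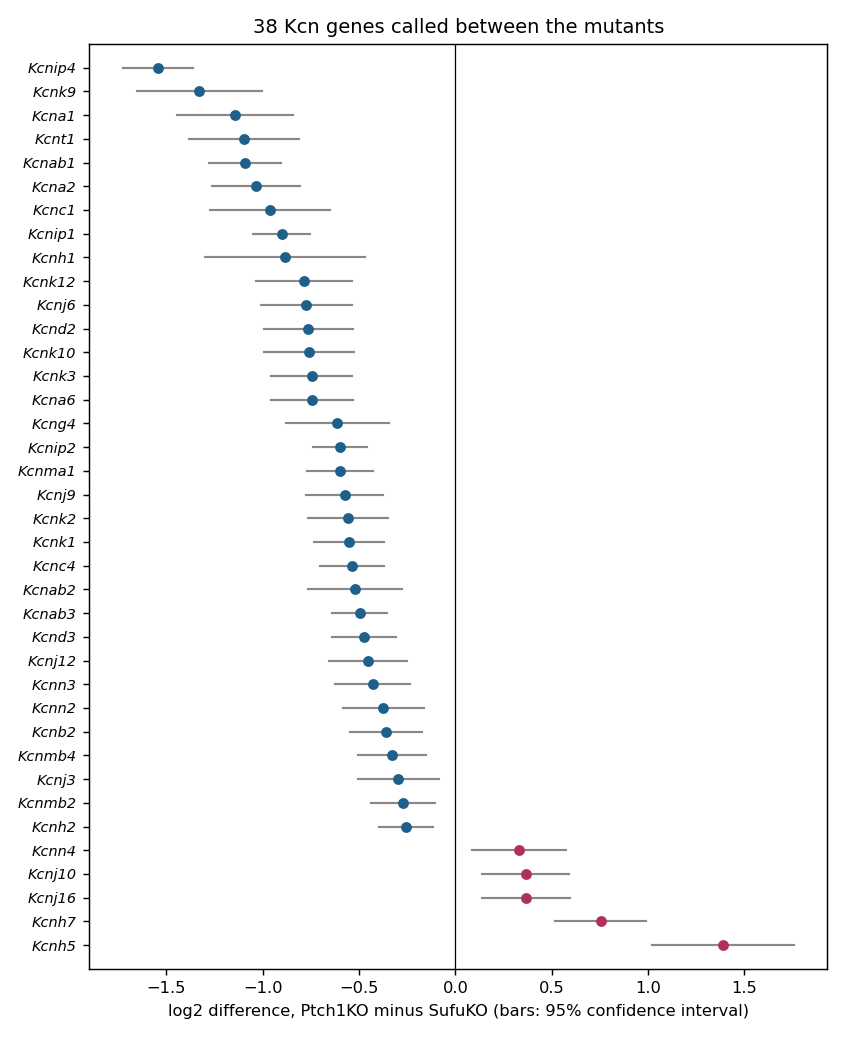
Ptch1KO minus SufuKO log2 difference (points, with 95% confidence intervals) of the 38 Kcn genes called between the mutants. Kcnip4 has the lowest difference, -1.54, and Kcnh5 the highest, 1.39; 33 are below 0 and 5 above.

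Markers of neurons, myelin and vessels moved beside the channels. The counts below stand beside 22.1% of all genes higher and 24.7% lower in Ptch1KO, and 13% higher and 12.4% lower in SufuKO. All 9 mature granule neuron markers tested were lower in each mutant than in wildtype, with summed log2 levels of 12.51 to 13.13 in Ptch1KO, 13.82 to 13.90 in SufuKO and 14.55 to 14.72 in wildtype. All 8 Purkinje cell markers tested were lower in each mutant, at 12.51 to 12.75 in Ptch1KO, 13.64 to 13.69 in SufuKO and 14.23 to 14.29 in wildtype. Interneuron markers were lower in 8 of 8 in Ptch1KO and 6 of 8 in SufuKO, at 10.51 to 10.64 in Ptch1KO, 11.50 to 11.65 in SufuKO and 12.30 to 12.41 in wildtype. Pax2 and Sst did not pass in SufuKO (-0.095 and -0.07, adjusted p = 0.432 and 0.772). The other 6 were Gad1, Gad2, Slc6a5, Slc32a1, Pvalb and Tfap2b. How far these 6 read interneurons rather than Purkinje cells was not tested. Granule neuron progenitor markers were higher in 6 of 7 in Ptch1KO and 5 of 7 in SufuKO, at 13.36 to 13.57 in Ptch1KO, 13.02 to 13.26 in SufuKO and 12.56 to 12.67 in wildtype. Mature oligodendrocyte markers were lower in 7 of 7 in each mutant, at 11.37 to 11.72 in Ptch1KO, 12.62 to 13.04 in SufuKO and 13.32 to 13.55 in wildtype. Endothelial markers were lower in 7 of 7 in Ptch1KO and 4 of 7 in SufuKO. Of 6 oligodendrocyte precursor markers, 3 were higher and 1 lower in Ptch1KO, and 1 was higher and 2 were lower in SufuKO. In bulk tissue, fewer cells of a type and less RNA per cell cannot be told apart, and the part of these markers in the channel results was not tested.

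Genes outside the Kcn series that bind, place or resemble potassium channels were counted beside them. Of 21 tested, 2 were higher and 15 lower in Ptch1KO, and 1 higher and 7 lower in SufuKO. The lower ones are 71.4% in Ptch1KO, beside 24.7% of all genes, and 33.3% in SufuKO, beside 12.4%, and the higher ones 9.52%, beside 22.1%, and 4.76%, beside 13%. Dpp10, a partner of Shal pores, read 6.95, 7.39 and 7.35 in Ptch1KO tumours, 8.59, 8.78 and 8.74 in SufuKO cerebella and 9.57, 9.64 and 9.49 in wildtype cerebella, falling by 2.33 in Ptch1KO (adjusted p = 1.53e-08) and by 0.86 in SufuKO (adjusted p = 0.000148). Lgi3, Lgi1, Adam22 and Cntnap2, which associate with axonal Shaker channels, fell by 1.69, 1.59, 1.23 and 1.21 in Ptch1KO. Cntn2, a contactin of the same axonal complex, was higher by 0.28 in Ptch1KO and by 0.68 in SufuKO. Of 3 sodium-potassium pump genes tested, Atp1b1 fell by 1.66 and Atp1b2 by 1.00 in Ptch1KO, and Atp1b3 was 0.30 higher.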

How the data were processed

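RNA of 9 samples, 3 per group, was measured on Affymetrix Mouse Gene 1.0 ST arrays, per the labels' protocols. The authors deposited log2 values for 35556 probe sets. How background, normalization and probe set summary were handled is not given in the sources used here, and there are no detection calls. The supplied annotation gave 1 gene to 21789 probe sets, several to 1621, and left 12146 unlisted, and the RefSeq table of GRCm38.p6 matched 21698 of the first. From these log2 values, 16323 of 19938 genes were kept (above the 25th percentile of the array on 3 or more arrays) and fitted with limma 3.58.1 in R 4.3.3, with 1 mean per group, no covariates, and Benjamini-Hochberg adjustment over all of them. The script was tested on simulated data. Members, role groups and lists were chosen with earlier results of these data known, and Kcnd3os was put in its group after its row was seen. Named are 17 textbook cerebellar channels, the 6 highest and 6 lowest called, non-overlapping differences per comparison, the smallest p per role group, and some members of counts of 5 or fewer. Alternatives changed the filter, normalization, probe sets, prior, weights, covariates and arrays.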

Additional observations from a re-analysis of the deposited data

Results flagged for a closer look

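In 4 Kcn genes the direct contrast of the mutants, a limma test of the difference itself, ran against the change in SufuKO from wildtype. The change seen in SufuKO was thus smaller or not found in Ptch1KO. Both contrasts use the same 3 SufuKO arrays with opposite sign, so a deviation of those arrays alone would give such a pair. The share of all genes that meet this rule was not counted. Kcnj6 differed by -0.77 (Ptch1KO minus SufuKO, adjusted p = 0.000215) and Kcnk2 by -0.56 (adjusted p = 0.000848), both higher in SufuKO than in wildtype. Kcnb2 differed by -0.36 (adjusted p = 0.00695), being higher than wildtype in both mutants. Kcnj16 differed by 0.37 (adjusted p = 0.0184), being lower in SufuKO than in wildtype. The Kcnj16 difference was lost with array weights (0.11, adjusted p = 0.274) and without Ptch1KO replicate 3 or SufuKO replicate 1 or 3 (adjusted p 0.0539 to 0.0676).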

How the results depend on the processing

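With 3 arrays per group and no detection calls, dim genes cannot be told from background and their differences may be understated. Over 2040 repeats for the 38 named genes, 1970 kept direction and side of the threshold, 51 lost a call, 19 gained one and 0 reversed. Leaving out 1 array gave 7 to 10 higher and 31 to 35 lower for Ptch1KO against wildtype, 7 to 8 and 20 to 24 for SufuKO against wildtype, and 3 to 5 and 30 to 34 for Ptch1KO against SufuKO, the 3 without Ptch1KO replicate 3 or SufuKO replicate 1. The cause was not tested. Array weights, whose fit warned of incomplete convergence, gave 12 higher and 29 lower for SufuKO against wildtype and 7 and 40 for Ptch1KO against SufuKO. Same-numbered arrays correlated between -0.31 and 0.35, and arrays of different number between -0.35 and 0.40. These values cannot tell whether same-numbered arrays were paired. With a replicate block the counts were 10 and 35, 8 and 20, and 6 and 33. Kcnn4 then passed in Ptch1KO against wildtype (adjusted p = 0.0328) and Kcns2 between the mutants (0.0176), while Kcnab3 (0.0691) and Kcnk13 (0.0637) lost their SufuKO calls. With a sex covariate they were 7 and 35, 9 and 23, and 5 and 33.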

Other observations

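Several Kcn genes are neighbours on a chromosome, and neighbours did not always move alike. Kcnj9 fell in Ptch1KO (-1.08) while its neighbour Kcnj10 was higher (0.27). Kcna1 and Kcna6 both fell in Ptch1KO (-1.78 and -1.37), whereas Kcna2 (-1.70) lies between Kcna3 and Kcna10, which read -0.17 and 0.03 and did not pass. Kcnj6 rose in SufuKO by 0.63 and its neighbour Kcnj15 read 0.01. These are only some of the neighbouring pairs among the Kcn genes, and the likeness of neighbours was not tested. Kcna10 and Kcnj15, with means of 6.45 and 5.99, lay below every array median. The Kcnj10 call was lost in several of the repeats given above.

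Kcnj13, a channel of choroid plexus, varied within groups, at 5.79, 6.51 and 6.37 in Ptch1KO tumours, 6.66, 5.94 and 7.43 in SufuKO cerebella and 5.85, 6.55 and 6.08 in wildtype cerebella. Summed choroid plexus markers ranged from 10.72 to 11.53 in Ptch1KO, from 9.87 to 12.18 in SufuKO and from 9.54 to 10.91 in wildtype, with SufuKO replicate 2 lowest and replicate 3 highest of its group for both. Its SufuKO difference of 0.52 (adjusted p = 0.266) passed without SufuKO replicate 2 (0.89, adjusted p = 0.0362) and with sex as a covariate (1.04, adjusted p = 0.0193), and the difference between the mutants passed without SufuKO replicate 2 (-0.82, adjusted p = 0.0442). Kcnj8 and Abcc9, which form the channel of pericytes, did not pass in any comparison (0.03 and -0.09 in Ptch1KO, -0.12 and -0.16 in SufuKO). Other pericyte markers did move. Of 6 listed, these 2 included, 1 was higher (beside 22.1% of all genes) and 3 lower (beside 24.7%) in Ptch1KO. The higher one, Cspg4 (0.34, adjusted p = 0.00801), also stands among the oligodendrocyte precursor markers counted above, so its rise cannot be assigned to pericytes. In SufuKO 2 were lower (beside 12.4%). Their summed log2 levels were 10.42 to 10.54 in Ptch1KO, 10.46 to 10.54 in SufuKO and 10.83 to 10.90 in wildtype. Their part was not tested.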
